A study of Solanum lycopersicum with 3 samples.

Results

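Tropinone reductases and their relatives in ripe tomato fruit were followed through 4 probes of the TOM2 long-oligo array, out of 11863 probe names other than controls. These were SGN-U215683, SGN-U217262 and SGN-U217263, whose deposited descriptions name a tropinone reductase or its homolog, and SGN-U213509, described as a short-chain type alcohol dehydrogenase and taken as a contrast. They were selected on the log2 ratio of Lycb-1 over wild type measured on these same arrays, so their ratios are given below as a description and carry no test. Each probe name was printed once, in 4 different blocks of the array.

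Ripe fruit (10 days post breaker, halved and deseeded) of the tomato cultivar Zhongshu No. 5 was compared with fruit of a Lycb-1 line of that cultivar, which carries a citrus lycopene β-cyclase gene under a constitutive viral promoter together with a kanamycin resistance gene. Each of the 3 arrays was hybridised with 1 Lycb-1 pool and 1 WT pool, made of 4 to 5 fruits that came from 3 plants. Lycb-1 was labelled with Cy5 and WT with Cy3 on every array, and the dyes were exchanged on 0 arrays. A dye effect of a single probe, an effect particular to the 1 transformant whose progeny were used and an effect of the transgene therefore cannot be told apart. The resistance gene nptII (X57709) had log2 ratios of 6.76, 7.99 and 5.65. Empty spots had a 99th percentile of 10 to 15 in Cy5 and 27 to 34 in Cy3. Of the array's probes, 5720 had at least 1 channel at or above the authors' limit of 400 on all 3 arrays and were tested with limma, with Benjamini-Hochberg adjustment over all of them. The number of arrays limits the precision.

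Short-chain dehydrogenases are a large family of small enzymes that bind NAD(H) or NADP(H) and reduce ketones or oxidise alcohols. Tropinone reductases are the members that reduce the ketone tropinone to tropine or pseudotropine in plants of the nightshade family that make tropane alkaloids, such as Datura and henbane. Many plant genes carry the name by similarity alone, in species without these alkaloids too, and what their enzymes act on is often unknown. Another branch of the family holds the Arabidopsis enzyme ABA2, which turns xanthoxin into abscisic aldehyde, the precursor of abscisic acid. The probe descriptions are names of the best database match, and enzyme activity was not measured.

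All 3 tropinone reductase probes were dimmer in Lycb-1 than in WT fruit on all 3 arrays, and the alcohol dehydrogenase was brighter. The tropinone reductase homolog SGN-U215683, whose best Arabidopsis match is AT2G29290, had background-subtracted intensities of 806, 275 and 263 in Lycb-1 and of 4031, 1795 and 1543 in WT on the arrays of replicates 1, 2 and 3. Every Lycb-1 value thus lay below every WT value. After print-tip loess the log2 ratios were -2.62, -2.63 and -2.68, with a mean of -2.64 (SE 0.18, n = 3 arrays), or 6.25-fold lower in Lycb-1. The SE uses a variance moderated across all probes. The SD of the 3 ratios themselves was 0.033, against a median SD of 0.36 over all tested probes. The Lycb-1 signal was under 400 on 2 arrays, but between 17.5 and 80.6 times the 99th percentile of empty spots.

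**Figure D1:**
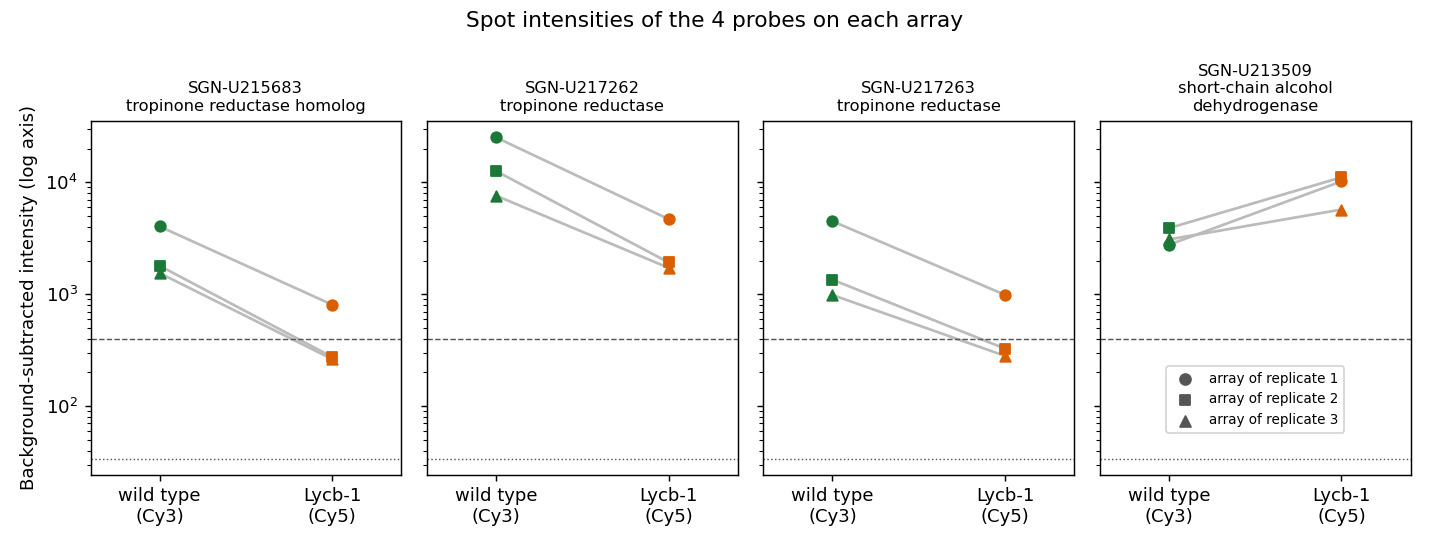
Background-subtracted intensity (log axis) of the 4 probes in wild type (Cy3, green) and Lycb-1 (Cy5, orange); each grey line joins the channels of 1 array, and marker shapes give the replicate. The dashed line is the limit of 400 and the dotted line the highest 99th percentile of empty spots (34); the lines fall on all 3 arrays for the 3 tropinone reductase probes and climb for SGN-U213509.

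SGN-U217262, described as a putative tropinone reductase, was above 400 in both channels on all 3 arrays. Its intensities were 4687, 1923 and 1721 in Lycb-1 and 25181, 12604 and 7594 in WT. Again the ranges of the genotypes did not overlap. The log2 ratios were -2.86, -2.75 and -2.10, with a mean of -2.57 (SE 0.23, n = 3), a 5.95-fold lower level in Lycb-1. The array of replicate 3 had the smallest difference.

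The probe SGN-U217263 carries the same description and the same best Arabidopsis match (AT5G06060) as SGN-U217262. It had intensities of 986, 326 and 281 in Lycb-1 and of 4488, 1347 and 984 in WT. Here the ranges touched, since the Lycb-1 pool of replicate 1 was at the level of the WT pool of replicate 3. With levels scaled between arrays they overlapped by 0.21 on the log2 scale, and with unscaled loess levels they did not overlap. Within each array it was lower in Lycb-1, with log2 ratios of -2.20, -1.98 and -1.88 and a mean of -2.02 (SE 0.19, n = 3), or 4.05-fold. The log2 ratio of SGN-U217262 was below that of SGN-U217263 on each array, by 0.67, 0.77 and 0.22 on the log2 scale. Whether both read 1 transcript or related copies is not known, since the oligo sequences were not analysed here.

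The alcohol dehydrogenase SGN-U213509 (best Arabidopsis match AT3G55290) had intensities of 10188, 11073 and 5710 in Lycb-1 and of 2764, 3890 and 3084 in WT. All Lycb-1 values were above all WT values. Its log2 ratios were 1.51, 1.16 and 0.71, with a mean of 1.13 (SE 0.23, n = 3), which is 2.19-fold higher in Lycb-1. The ratio on the array of replicate 3 was below 2-fold.

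Read against all 5720 tested probes, the counts of these chosen probes are as follows, and nothing is drawn from them. Lower on all 3 arrays were the 3 tropinone reductase probes, and 21.3% of all probes. Higher on all 3 was SGN-U213509, with 20.4% of all probes. At least 2-fold lower on every array were the 3 tropinone reductase probes and 0.927% of all, and at least 2-fold higher on every array were 0 of the 4 and 0.594% of all. All normalised Lycb-1 levels lay below all WT levels for SGN-U215683 and SGN-U217262 and for 8.81% of all probes, and above them for SGN-U213509 and for 7.57% of all. SGN-U215683 was 1 of the 3 probes of 5720 (0.0524%) at an adjusted p under 0.05 in limma, and was not among those that passed when any 1 replicate was left out. This probe was chosen on the same ratio, so the call is no independent support for a difference.

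The 3 tropinone reductase probes also shared a pattern that the ratio does not use, the level in the pools of 1 genotype. Levels were scaled between arrays for this comparison. In Lycb-1, SGN-U215683 was 2.51 and 3.40 times as high on the array of replicate 1 as on those of replicates 2 and 3, and in WT 2.49 and 3.26 times. For SGN-U217262 these folds were 2.06 and 2.30 in Lycb-1 and 2.23 and 3.90 in WT. For SGN-U217263 they were 2.89 and 4.26 in Lycb-1 and 3.36 and 5.31 in WT. The levels read for 1 genotype thus differed by as much as 5.31-fold between arrays, while the log2 ratio within an array stayed between -2.86 and -1.88 for all 3 probes.

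Both channels were at least 2-fold higher on the array of replicate 1 than on each other array for 15 of 5720 probes (0.262%), and the 3 tropinone reductase probes were among them. This count was set up after the values had been seen and has no test. SGN-U217262 was only just inside, with a smallest difference of 1.05 on the log2 scale, where 1 was needed. The alcohol dehydrogenase was not among the 15, and its level on the array of replicate 1 was 0.72 and 0.97 times that on the other arrays in WT, and 0.92 and 1.68 times in Lycb-1. The SD of the log2 level over the WT pools was 0.89 for SGN-U215683, 0.99 for SGN-U217262, 1.24 for SGN-U217263 and 0.26 for SGN-U213509, against a median of 0.34 over all tested probes. Over the Lycb-1 pools it was 0.92, 0.65, 1.08 and 0.47 in the same order, against a median of 0.35. Both genotypes of an array were read from the same spots, so more transcript in the pools of replicate 1 and more signal from these spots on that array cannot be told apart. Fewer cells that express a gene and less RNA per cell cannot be told apart in whole fruit either.

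**Figure D2:**
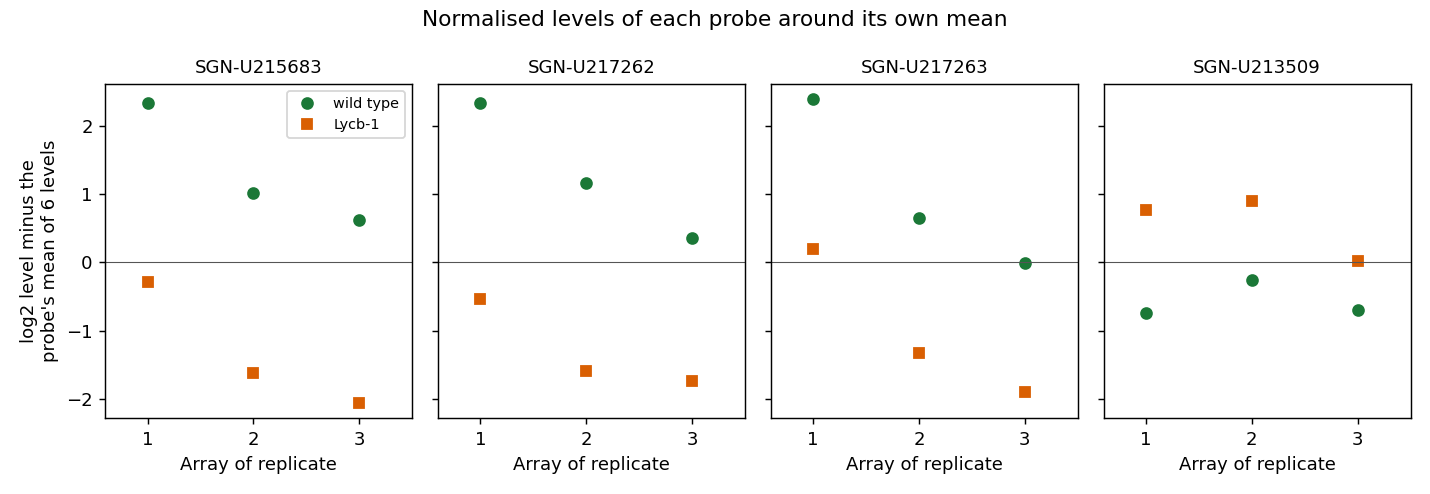
Normalised log2 level of each probe minus the mean of its 6 levels, by array, for wild type (green circles) and Lycb-1 (orange squares). In the 3 tropinone reductase panels both genotypes are highest on the array of replicate 1, with Lycb-1 below wild type on every array; SGN-U213509 lacks this pattern.

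Likeness was also measured over the 6 levels, each probe centred on its own mean, as a root mean square difference in log2 units (a measure added after the values were seen). The 6 levels hold the genotype difference by which the probes were chosen, and the 3 log2 ratios are that difference. Likeness among the 3 tropinone reductase probes is therefore partly set by the choice and is given as a description only. The probe most like SGN-U215683 was SGN-U217262, at 0.21, followed by SGN-U217263, at 0.39, and the probes most like the other 2 were again tropinone reductases. The next probe after them for SGN-U215683 was the xyloglucan endotransglycosylase LeXET2 (SGN-U215153), at 0.67. By the 3 log2 ratios alone, SGN-U217262 was the nearest to SGN-U215683 (0.37), then a putative allergen (SGN-U216076, 0.47) and LeXET2 (0.49). LeXET2, a cell wall enzyme that cuts and rejoins xyloglucan, was also the nearest to SGN-U217263 (0.24). SGN-U216076 was the next for SGN-U217263 (0.27), with the chlorophyll a/b-binding protein SGN-U218921 after it (0.40). For SGN-U217262 the order was SGN-U215683 (0.37), SGN-U216076 (0.43) and LeXET2 (0.56). The mean log2 ratios of SGN-U216076 and LeXET2 were -2.21 and -2.16 (adjusted p = 0.0743 from limma for both). The alcohol dehydrogenase was nearest to a DNA-binding protein (SGN-U222647, 0.093), a protein of unknown function (SGN-U215736, 0.12) and the ripening protein E8 (SGN-U212800, 0.15), which had a mean of 1.03 (SE 0.22, adjusted p = 0.207 from limma).

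The array holds 3 further probes described as tropinone reductases, and these were at or near the level of empty spots. SGN-U216944 had 3, 9 and 32 in Lycb-1 and 13, 1 and 9 in WT. SGN-U233656, which shares the Arabidopsis match of SGN-U215683, had 15, 21 and 44 in Lycb-1 and 62, 1 and 48 in WT. SGN-U230051, with the Arabidopsis match of SGN-U217262 and SGN-U217263, had 0, 5 and -4 in Lycb-1 and -4, 1 and 55 in WT. No ratio is given for them, and the tested tropinone reductase probes are the 3 chosen ones. They therefore do not stand for all genes of that name.

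Identical in description to the alcohol dehydrogenase SGN-U213509 were 2 further probes, singled out here for that description. Their best Arabidopsis matches, AT1G63380 for SGN-U213508 and AT3G55310 for SGN-U213507, differ from its match AT3G55290, so they need not read the same gene. SGN-U213508 had intensities of 3391, 2230 and 2239 in Lycb-1 and of 1975, 2742 and 3469 in WT. The ranges overlapped, and its log2 ratios of 0.63, -0.22 and -0.72 differed in sign between arrays (adjusted p = 0.889 from limma, mean -0.11, SE 0.30). SGN-U213507 was under 400 in both channels on every array and was not tested. It had 339, 239 and 339 in Lycb-1 and 184, 126 and 277 in WT, and the authors' log2 ratios were 1.15, 0.90 and 0.34. Its values were higher in Lycb-1 on each array, and like those of SGN-U213509 the smallest difference was on the array of replicate 3.

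Among the other short-chain dehydrogenases, named by words in their descriptions, mean ratios lay on both sides of 0. Of 38 probes on this list 18 were tested, and the 17 other than SGN-U213509 had mean log2 ratios from -0.70 to 1.68 with a median of -0.17, against -0.01 over all tested probes. With SGN-U213509 counted, 5 of the 18 were lower and 5 higher on all 3 arrays, 0 were at least 2-fold lower or higher on every array, and 0 passed limma at an adjusted p under 0.05, with 5 at an unadjusted p under 0.05, which 15.4% of all tested probes had. The sign of the median depends on the processing: over the 18 probes it was -0.14, but 0.091 with median centring, which itself moves all probes up by 0.16, 0.15 with no filter on dim spots and 0.11 without replicate 3. The highest was steroleosin (SGN-U216554), an oil body protein with a dehydrogenase domain, at 1.68 (SE 0.47, n = 3, adjusted p = 0.249 from limma), with 1.61, 2.91 and 0.53 on the arrays. The lowest, chosen after its value was seen, was the forever young oxidoreductase (SGN-U221984), at -0.70 (SE 0.19, adjusted p = 0.249 from limma) and between -0.94 and -0.55 on the arrays. The means of all 3 tropinone reductase probes were below the lowest of these 17. The tropinone probes were chosen for low ratios, so this gap is no test of a difference between the groups.

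**Figure D3:**
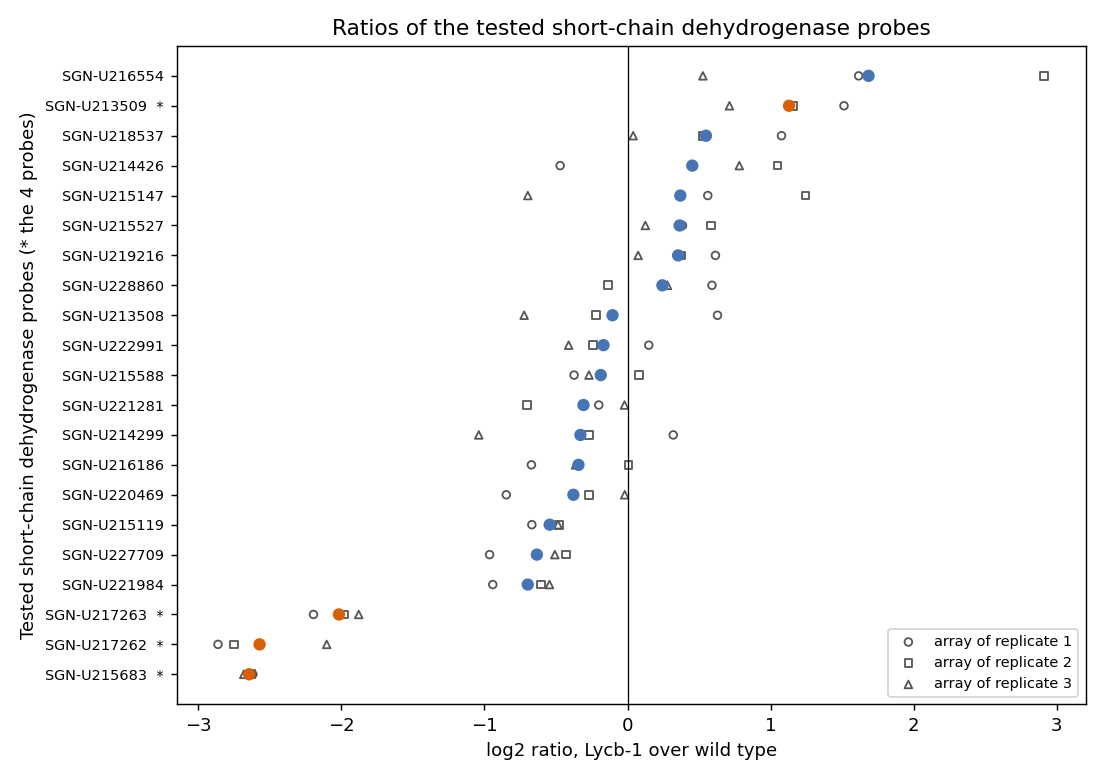
Log2 ratio of Lycb-1 over wild type for the 21 tested short-chain dehydrogenase probes, with open symbols for the 3 arrays and filled symbols for the mean (orange: the 4 chosen probes, marked *). The 3 tropinone reductase probes have means from -2.64 to -2.02, and the other probes from -0.70 to 1.68.

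Extended short-chain dehydrogenases, which include sugar epimerases and reductases of phenolic synthesis, had a median of 0.05 over 13 tested probes of 34, and 4 of them were lower and 4 higher on all 3 arrays. An epimerase/dehydratase of this list (SGN-U215290) had -1.09 (SE 0.19, adjusted p = 0.179 from limma), and the GDP-mannose epimerase SGN-U214427, an enzyme of vitamin C synthesis, had 0.69 (SE 0.19, adjusted p = 0.252 from limma). Other probes described as alcohol dehydrogenases, taken as other families from these words alone, had a median of 0.02 over 8 of 17, and 2 were lower and 2 higher on all 3 arrays. SGN-U215207 of these had -1.08 (adjusted p = 0.249 from limma), and alcohol dehydrogenase 3 (SGN-U212764) had 0.64 (adjusted p = 0.335 from limma). The list of aldo-keto reductases, another family that reduces ketones, had a median of 0.31 over 5 of 20 (0.13 without replicate 2 and 0.72 without replicate 3), and 3 were higher and 0 lower on all 3 arrays. Among those 3 was SGN-U214602 (0.22), described as a succinic semialdehyde reductase and not by the family name, so the list is not strictly that family. The 2 with the largest ratios were SGN-U241613 at 0.91 (adjusted p = 0.282 from limma) and SGN-U212944 at 0.65 (adjusted p = 0.308 from limma). In these 3 lists 0 probes passed the adjusted limit. An unadjusted p under 0.05 in limma was found for 3 of 13, 1 of 8 and 2 of 5, against 15.4% of all tested probes.

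**Figure D4:**
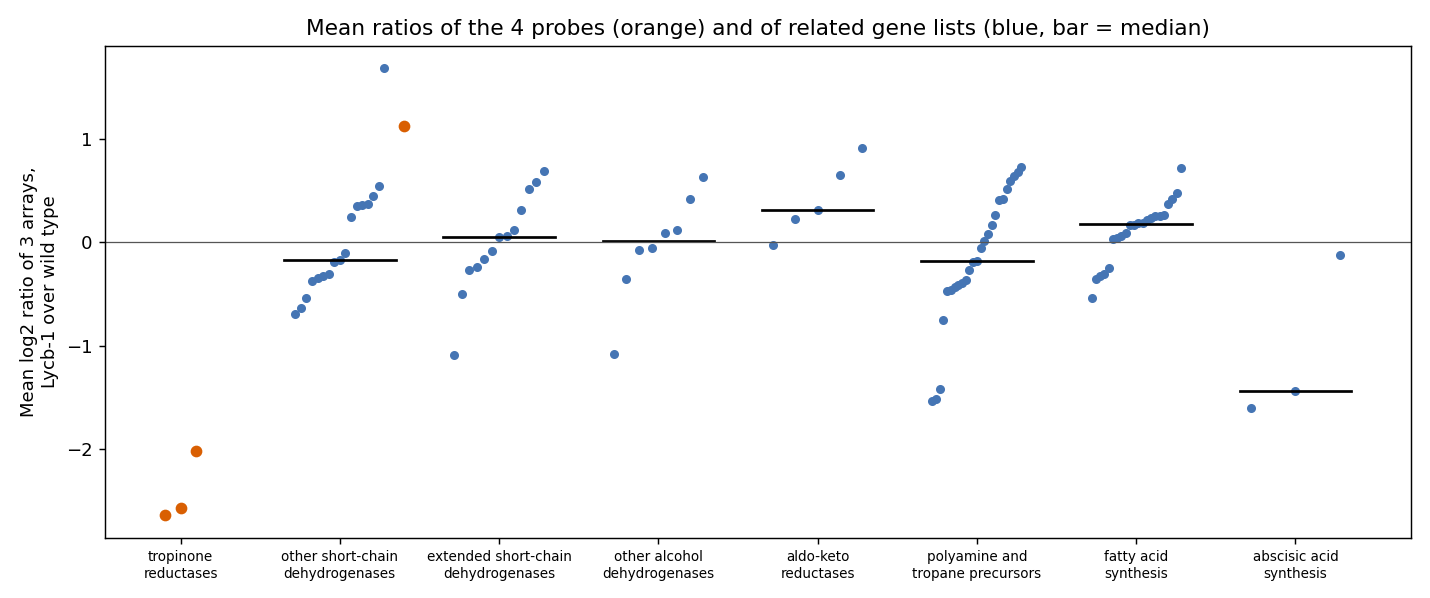
Mean log2 ratio of 3 arrays for the chosen probes (orange) and for the tested probes of each related list (blue dots, 1 per probe; the bar is the median of the blue dots). Apart from the 3 abscisic acid probes, the medians lie between -0.18 and 0.31.

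Enzymes of polyamine metabolism, a pathway that supplies the precursor of tropanes in plants that make them, had a median of -0.18 over 25 tested probes of 44 (0.033 with median centring). The 25 hold oxidases besides enzymes of synthesis: polyamine oxidase 2 (SGN-U233298 at 0.52, SGN-U215626 at 0.083) and a copper amine oxidase (SGN-U223643 at 0.16). Of the 25, 5 were lower and 6 higher on all 3 arrays, and 0 passed. An unadjusted p under 0.05 in limma was found for 4 of them, against 15.4% of all tested probes. The arginine decarboxylase probes SGN-U213123 and SGN-U232333 had the largest ratios, -1.53 (SE 0.57, adjusted p = 0.312 from limma) and -1.52 (SE 0.84, adjusted p = 0.432 from limma). Both varied widely, from -3.15 to -0.17 and from -3.88 to 0.66 on the arrays, and were lowest on that of replicate 3. Arginine decarboxylase makes agmatine, a precursor of putrescine. Fatty acid synthesis, in which short-chain dehydrogenases carry out a reduction step, was listed too, and its enzymes had a median of 0.18 over 22 of 31. As 2 of these are described only as malonyltransferases, which need not belong to fatty acid synthesis, they were left out after the values were seen. Of the 20 others 1 was lower and 5 were higher on all 3 arrays. Their median was 0.19 and 0 passed (2 of 20 at an unadjusted p under 0.05 in limma, against 15.4% of all tested probes). The 3-oxoacyl-(acyl-carrier-protein) synthase III SGN-U218414, which starts fatty acid chains, had 0.72 (SE 0.25, adjusted p = 0.291 from limma). The 3-ketoacyl-CoA reductase SGN-U215119, which acts in chain elongation and is also among the short-chain dehydrogenases above, had -0.54 (SE 0.18, adjusted p = 0.284 from limma).

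For abscisic acid synthesis, the probe whose best Arabidopsis match is the ABA2 locus AT1G52340 (SGN-U223504) had 568, 5 and 58 in Lycb-1 and 166, -1 and 51 in WT, and was under 400 on 2 of the 3 arrays. Of 11 probes on the list 3 were tested and 0 passed. The 2 zeaxanthin epoxidase probes were lower on each array and 0 probes were higher, against 21.3% and 20.4% of all tested probes. The other, the aldehyde oxidase SGN-U213961, had 0.18, -0.41 and -0.14 (mean -0.12, SE 0.21, adjusted p = 0.804 from limma). An unadjusted p under 0.05 in limma was found for 1 of the 3, against 15.4% of all tested probes. The median of the 3 was -1.44, which is the value of 1 zeaxanthin epoxidase probe. Without replicate 1 it was -0.57, and over 10 probes with dim spots let in it was 0.64. The list had missed nine-cis-epoxycarotenoid dioxygenase by its spelling. With it, as added after the values were seen, 4 of 13 probes were tested, 2 lower and 1 higher on all 3 arrays, and the median was -0.78. Zeaxanthin epoxidase, which makes the epoxycarotenoids that abscisic acid comes from, had -1.61 (SE 0.45, adjusted p = 0.251 from limma) for SGN-U221254 and -1.44 (SE 0.61, adjusted p = 0.345 from limma) for Z83835. These ratios varied widely, from -2.57 to -0.35 and from -3.18 to -0.02 on the arrays.

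Lists of markers for other tissues are given beside the ratios above, and 0 of their probes passed limma at an adjusted p under 0.05. An unadjusted p under 0.05 in limma was found for 10 of 22 tested ripe fruit and 15 of 27 green tissue probes. It was found for 4 of 12 epidermis and 1 of 2 seed storage probes, against 15.4% of all tested probes. Of all tested probes, 21.3% were lower and 20.4% higher on all 3 arrays. Ripe fruit markers were bright in both genotypes, and 22 of 33 probes were tested. On all arrays 15 were higher and 1 lower in Lycb-1, with a median of 0.64. Several of these probes share a description, such as those of phytoene synthase, E8 and ACC oxidase, so they do not count as separate markers. The log2 of the summed level of the list was 19.05 to 19.29 in Lycb-1 and 18.08 to 18.44 in WT. The highest were 2 probes of the ripening protein E4, SGN-U213992 at 2.73 and SGN-U213993 at 2.68 (adjusted p = 0.180 from limma for both). Epidermis and cuticle markers had a median of -1.17 over 12 tested probes of 25. On all 3 arrays 4 were lower and 0 higher, and 8 differed in sign between arrays. The median was -1.49 without replicate 1 and -0.43 without replicate 3, and the list had summed log2 levels of 14.97 to 15.79 in Lycb-1 and 15.95 to 16.98 in WT. Of these the lipid transfer protein SGN-U216420 had -1.27 (adjusted p = 0.179 from limma). Green tissue markers had a median of -1.22 over 27 of 52, with 19 lower and 3 higher. Without replicate 3 the median was -0.59. It was -0.32 over the 11 probes with both channels at 400 or more, and -0.53 over 49 with no filter on dim spots. The lowest green tissue markers were the chlorophyll a/b-binding proteins SGN-U213105 at -2.26 (adjusted p = 0.202 from limma) and M14444 at -1.91 (adjusted p = 0.179 from limma). The tested Rubisco small subunit probes of this list lay on both sides of 0. SGN-U225501 had 1.02, SGN-U225519 0.33, SGN-U225550 -0.10, SGN-U225500 -0.12 and SGN-U225544 -0.63. The summed log2 level of the whole green tissue list was 15.14 to 16.11 in Lycb-1 and 15.83 to 16.66 in WT. Of 7 seed storage markers 2 were tested, SGN-U218425 at -1.45 (adjusted p = 0.269 from limma) and SGN-U221589 at -0.54 (adjusted p = 0.377 from limma). Both carry a description shared by lipid transfer proteins and are also on the epidermis list, so 0 seed probes outside that list were bright enough to test. In WT the summed levels of the epidermis and of the green tissue markers were highest on the array of replicate 2. In Lycb-1 the green tissue sum was highest on that of replicate 2 and the epidermis sum on that of replicate 1 (15.79, against 15.70 and 14.97). The part of these tissues in the tropinone reductase ratios was not tested.

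Under the other processing 0 of the chosen ratios changed sign. The means of the tropinone reductase probes stayed between -2.81 and -1.78 where they were measured. That of SGN-U213509 ran from 0.94 without replicate 1 to 1.48 with median centring, and so lay on both sides of 2-fold. With the authors' own ratio the means were -2.50 for SGN-U215683, -2.43 for SGN-U217262, -1.78 for SGN-U217263 and 1.23 for SGN-U213509. SGN-U215683 and SGN-U217263 could not be measured when both channels had to reach 400 on all arrays, since their Lycb-1 signal was under 400 on 2 of them.

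**Figure D5:**
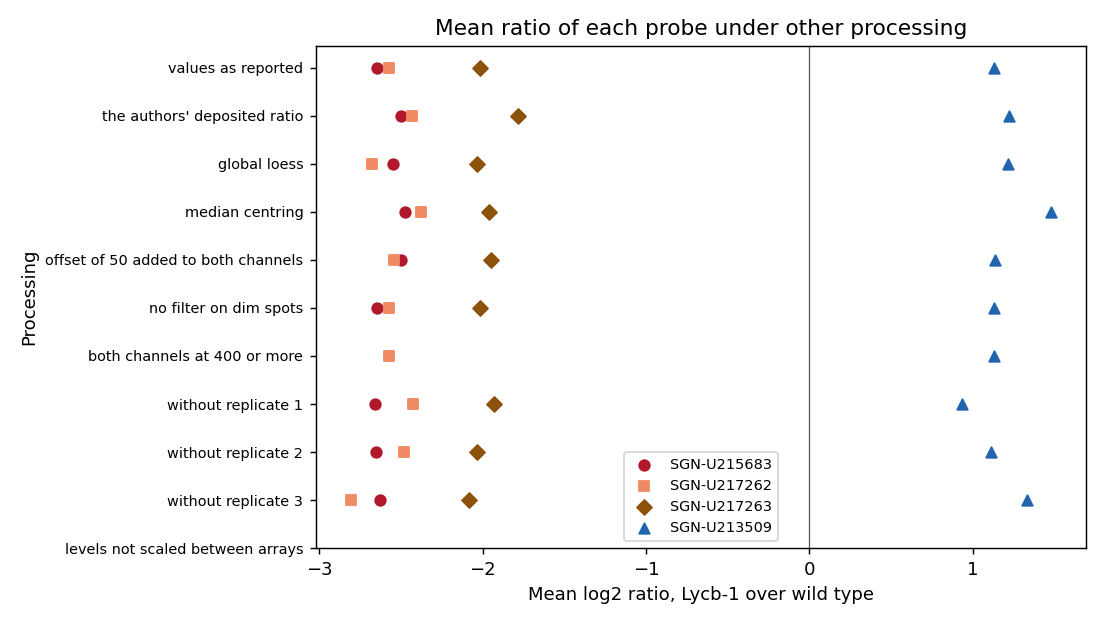
Mean log2 ratio of Lycb-1 over wild type for each of the 4 probes (symbols) under the reported and alternative processing (rows). The tropinone reductase probes lie between -2.81 and -1.78 in every row where they were measured and SGN-U213509 between 0.94 and 1.48; SGN-U215683 and SGN-U217263 have no value where both channels must reach 400.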

How the data were processed

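RNA of 3 pairs of ripe fruit pools was measured on 3 TOM2 arrays of 13728 spots. In the deposited files the authors gave background-subtracted intensities of each channel, not normalised between channels, and their ratio of Lycb-1 over WT after print-tip lowess with marray. The deposited value table holds log2 of that ratio per spot. Here, intensities at or below 0 were left out and print-tip loess over 48 blocks of 286 spots was run in limma 3.58.1 (R 4.3.3), with 13 control names and 1568 empty spots at weight 0. Spots marked by the authors as checked on all 3 arrays (5846) were averaged by probe (5720), and the mean log2 ratio was tested against 0 with lmFit and eBayes (two-sided, Benjamini-Hochberg). Levels were scaled between arrays with Aquantile. The procedure was tested on simulated data. The probes and lists were chosen with earlier results of these data known. Apart from the chosen probes, those named are the 2 of each list with the largest mean ratio, the 3 nearest to each chosen probe by ratios, the transferred resistance gene and others said to be chosen later. Of 11863 probe names 0 matched the reference table. The files of checked and of differentially expressed spots, the latter the authors' own comparison, were not used. Lists were matched by words in the probe descriptions. Alternatives were the authors' ratio, global loess, median centring, an offset of 50, no filter, both channels at 400 or more, the methods' t-test, an intensity trend in limma and leaving out each replicate. Figures were drawn with matplotlib 3.10.9.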

Additional observations from a re-analysis of the deposited data

How the results depend on the processing

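Of the 3 probes at an adjusted p under 0.05 in limma, 0 were left with the authors' ratio, with no filter on dim spots or with the methods' t-test, 1 with both channels at 400 or more, and 0 to 1 without 1 replicate, while global loess gave 9 and median centring 17 (all 3 among them; 2 and 3 were chosen probes). The calls of chosen probes rest on the ratio by which they were chosen and are no test of them. The unadjusted p was under 0.05 for 883 of all tested probes (15.4%). Probes at least 2-fold lower on every array numbered 117 with no filter, 24 with both channels at 400 or more and 128 to 131 without 1 replicate, against 53. Those at least 2-fold higher numbered 60 with median centring, 81 with no filter and 48 to 133 without 1 replicate, against 34. The mean log2 ratio of SGN-U215683 was -2.50 with the authors' ratio, -2.55 with global loess, -2.48 with median centring and -2.50 with an offset of 50, and that of SGN-U217263 was -1.78 with the authors' ratio. The median of the other short-chain dehydrogenases was 0.091 with median centring, 0.15 with no filter and -0.12 to 0.11 without 1 replicate. For the alcohol dehydrogenases of other families it was 0.093 with global loess, 0.28 with median centring, -0.065 with no filter, 0.086 with both channels at 400 or more and -0.0013 to 0.051 without 1 replicate. For polyamine enzymes it was -0.11 with the authors' ratio, 0.033 with median centring, -0.27 with no filter and -0.057 with both channels at 400 or more. Median centring gave 1.29 for ripe fruit markers, no filter gave 0.64 for abscisic acid enzymes, and both channels at 400 or more gave -0.32 for green tissue markers. Median centring moved the median of all probes by 0.16, and the cause of the other shifts was not tested. Levels not scaled between arrays, tried after the values were seen, gave 466 probes wholly lower, 410 wholly higher and 13 at least 2-fold higher in both channels on the array of replicate 1, the tropinone reductase probes included. Of the alternative values of the chosen probes, 29 moved by less than the replicate SD and 5 by more. Each array gave 1 ratio, which already pairs its pools, so no separate paired analysis was run.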

Other observations

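Besides the 3 tropinone reductase probes, 12 probes had both channels at least 2-fold higher on the array of replicate 1 than on each other array, and their mean log2 ratios of Lycb-1 over WT lay between -1.52 and 0.74. Among them were nine-cis-epoxycarotenoid dioxygenase (SGN-U214605), which cleaves epoxycarotenoids on the way to abscisic acid, with a mean log2 ratio of 0.33, and 2 late embryogenesis-like proteins, SGN-U214534 at 0.74 and the ethylene-responsive U77719 at 0.47. A geranylgeranyl pyrophosphate synthase (SGN-U242720, 0.45), a β-galactosidase (SGN-U214120, 0.31) and an arginine decarboxylase (SGN-U232333, -1.52) were also in this set. These were chosen after their values were seen, and what sets the pools or the array of replicate 1 apart was not tested.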
